A study of Mus musculus with 3 samples.

Results

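The core machinery of macroautophagy was followed in RAW 264.7 cells as 44 genes picked by name: the subunits that start, build, label and fuse the autophagosome, and the receptors that bring cargo to it. All 44 had a row among the 46078 genes of the deposited table. Of these, 41 had a mean level of at least 1 FPKM (reads scaled to exon length and to the library's summed reads) over the libraries and are called measured. RAW 264.7 is a mouse macrophage-like line raised from an ascites tumor that Abelson murine leukemia virus induced. Each of 3 cultures gave 1 RNA sequencing library. One culture is labelled control, with no vehicle named. The hydroxyurea (HU) culture received 0.5 mM HU, and the third received 0.5 mM HU and gold nanocages together. The treatment protocol, which is worded alike for each library, gives 12 hours of culture. The nanocages' dose is not given in the sources used here, no culture with nanocages alone was analysed here, and all cultures came from the same line in serum-containing medium. The series asks whether nano gold acts on autophagy and protects HU-damaged cells from death.

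Macroautophagy encloses cytoplasm in a double membrane and delivers it to the lysosome. The ULK kinase complex receives nutrient and stress signals from mTORC1 and AMPK, and the class III phosphatidylinositol 3-kinase complex then marks the growing membrane with PI3P. ATG2, ATG9 and the WIPI proteins feed that membrane with lipid, a pair of ubiquitin-like conjugation systems attach ATG8 proteins to it, receptors bind ATG8 and cargo, and SNARE proteins fuse the closed vesicle with the lysosome. Much of this control acts on protein, through phosphorylation and lipidation, and is not seen in RNA. In macrophages the same genes also serve the removal of microbes and the handling of phagosomes.

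With 1 library per condition no difference below has a replicate check, and no p-value was computed. Ratios are those of CPM, in which reads are scaled to the library's sum alone. Each carries an exact 95% interval from the reads of both libraries, which covers counting error only, and a gene counts as above or below counting error where 1 falls outside its interval. In bulk RNA, fewer cells expressing a gene and less RNA per cell cannot be told apart. The libraries held 14990564 reads for control, 20057329 for HU and 18644333 for HU plus gold nanocages, and the 44 genes together took 2704, 2632 and 2653 CPM in that order. Of 10 macrophage markers, 9 were measured, with a summed level of 2808 to 3063 FPKM. None of the 23 markers of lymphocytes, fibroblasts, granulocytes, mast cells and epithelium was measured, and 19 of them had 0 FPKM throughout. Exons of 9 members overlap those of a gene of at least 10 reads on the other strand: Rb1cc1, Becn1, Atg2b, Atg9a, Atg4d, Atg16l2, Map1lc3b, Sqstm1 and Snap29.

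The autophagy genes stood at middling levels in this line. Among the 41 measured members the middle one by deposited FPKM in each library was Wipi2. It was at 10.4 FPKM in control, 10.0 for HU and 10.08 with nanocages added. The medians for all 10849 measured genes were 10.62 to 10.65. Over all 44 members, including those not measured, the median was 9.10, 9.01 and 9.41 FPKM in the same order. Sqstm1 was the highest, above 97.0% of measured genes in control. Gabarap came second, above 93.3%. Wipi1, Optn and Tecpr1 were not measured, with means of 0.247, 0.03 and 0.943 FPKM. The lowest of the measured members were Rb1cc1 and Atg10, with means of 2.10 and 2.19 FPKM. Rb1cc1 rested on 517 to 584 reads and Atg10 on 44 to 74.

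**Figure D1:**
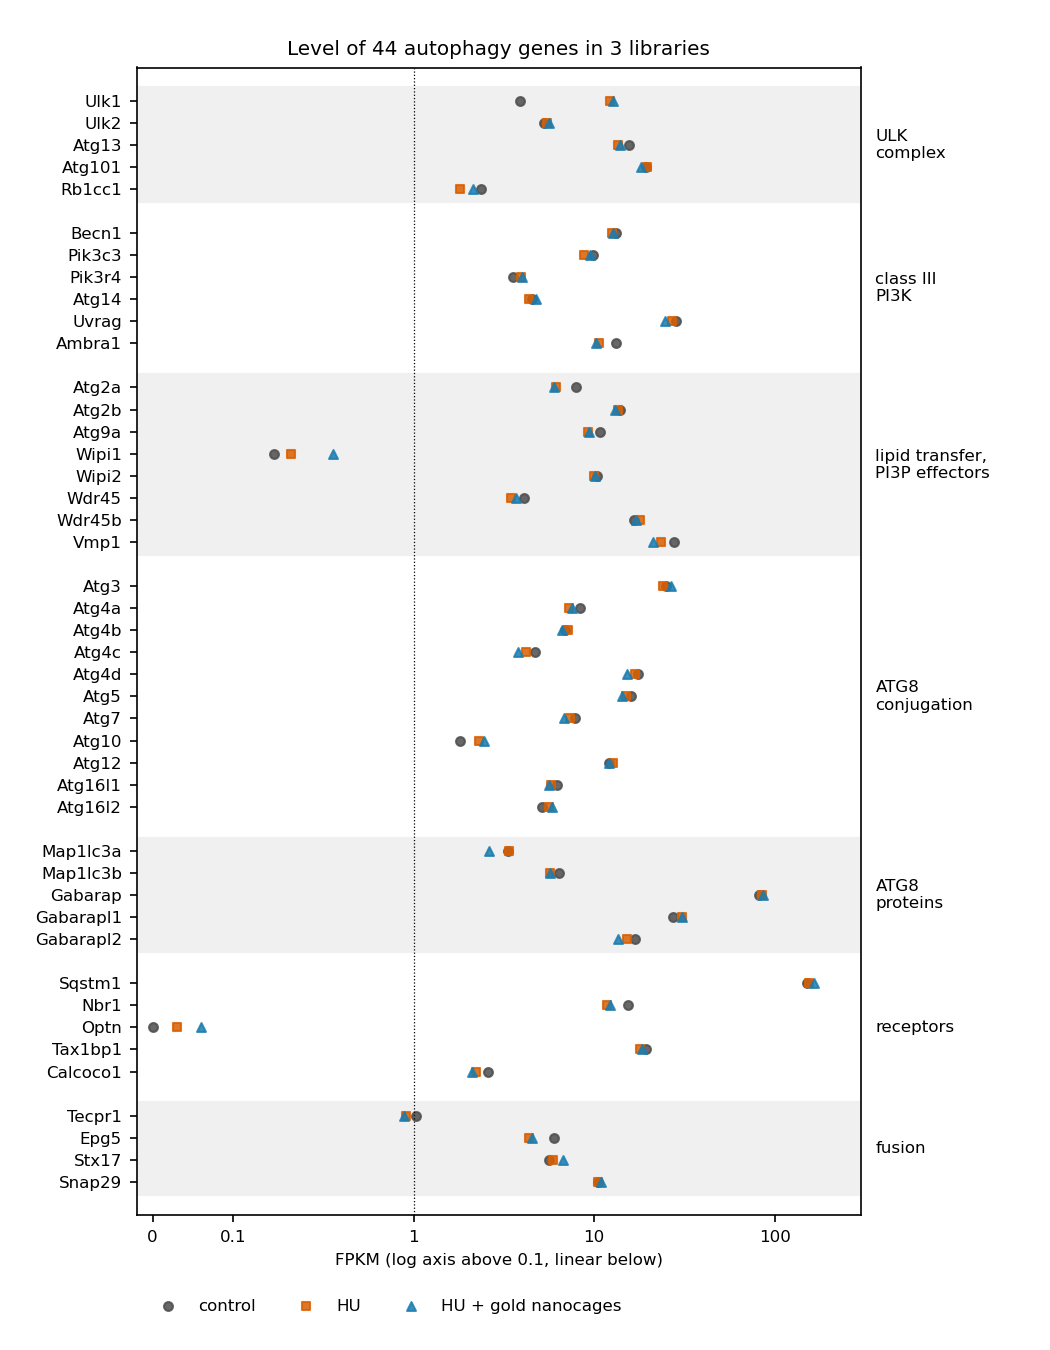
Level of each of the 44 genes in FPKM (x axis, log scale above 0.1) in the control, HU and HU plus gold nanocages libraries, 1 point per library, grouped by step of autophagy; the dotted line marks 1 FPKM. Ulk1 is the member whose control point lies farthest below its other points, at 3.89 against 12.25 and 12.71 FPKM.

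HU against control sets the drug-treated culture beside the control culture, at 12 hours. A single gene of the set, Ulk1, was much higher, and the rest stayed within a narrow range in which lower values outnumbered higher ones. Of 41 measured members, 3 were above counting error, beside 18.7% of all measured genes, and 11 were below it, beside 20.2%. The 3 were Ulk1, Gabarapl1 and Sqstm1. Beyond counting error and at least 25% higher stood 1 member, beside 7.5% of all genes. Beyond counting error and at least 20% lower, the inverse of that fold, stood 4, Rb1cc1, Atg2a, Nbr1 and Epg5, beside 6.43%. The median log2 ratio of the members was -0.07, beside -0.0085 over all measured genes, and 65.9% of members had a ratio under 1, beside 52.0% of genes.

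HU plus gold nanocages against HU sets the cultures with and without nanocages side by side, and here the members differed little. Above counting error lay 4 of 41 members, Rb1cc1, Atg3, Sqstm1 and Stx17, beside 8.36% of all measured genes. Below it lay 4, Uvrag, Vmp1, Atg4d and Gabarapl2, beside 7.79%. None of the 41 was both beyond counting error and at least 25% higher or 20% lower, beside 1.34% and 0.96% of genes. Measured ratios ran from 0.780 for Map1lc3a (0.546 to 1.11) to 1.18 for Rb1cc1, with a median log2 ratio of 0.01 beside 0.0042 for all genes.

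HU plus gold nanocages against control shares a library with each of the other contrasts and is given beside them. Of 41 members, 4 were above counting error (19.6% of genes) and 15 below (20.1% of genes). Ulk1 was the 1 measured member at least 25% higher (7.93% of genes). Ambra1, Atg2a, Vmp1, Nbr1 and Epg5, 5 in all, were at least 20% lower (6.19% of genes). The median log2 ratio was -0.09 beside -0.0042 for all genes.

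**Figure D2:**
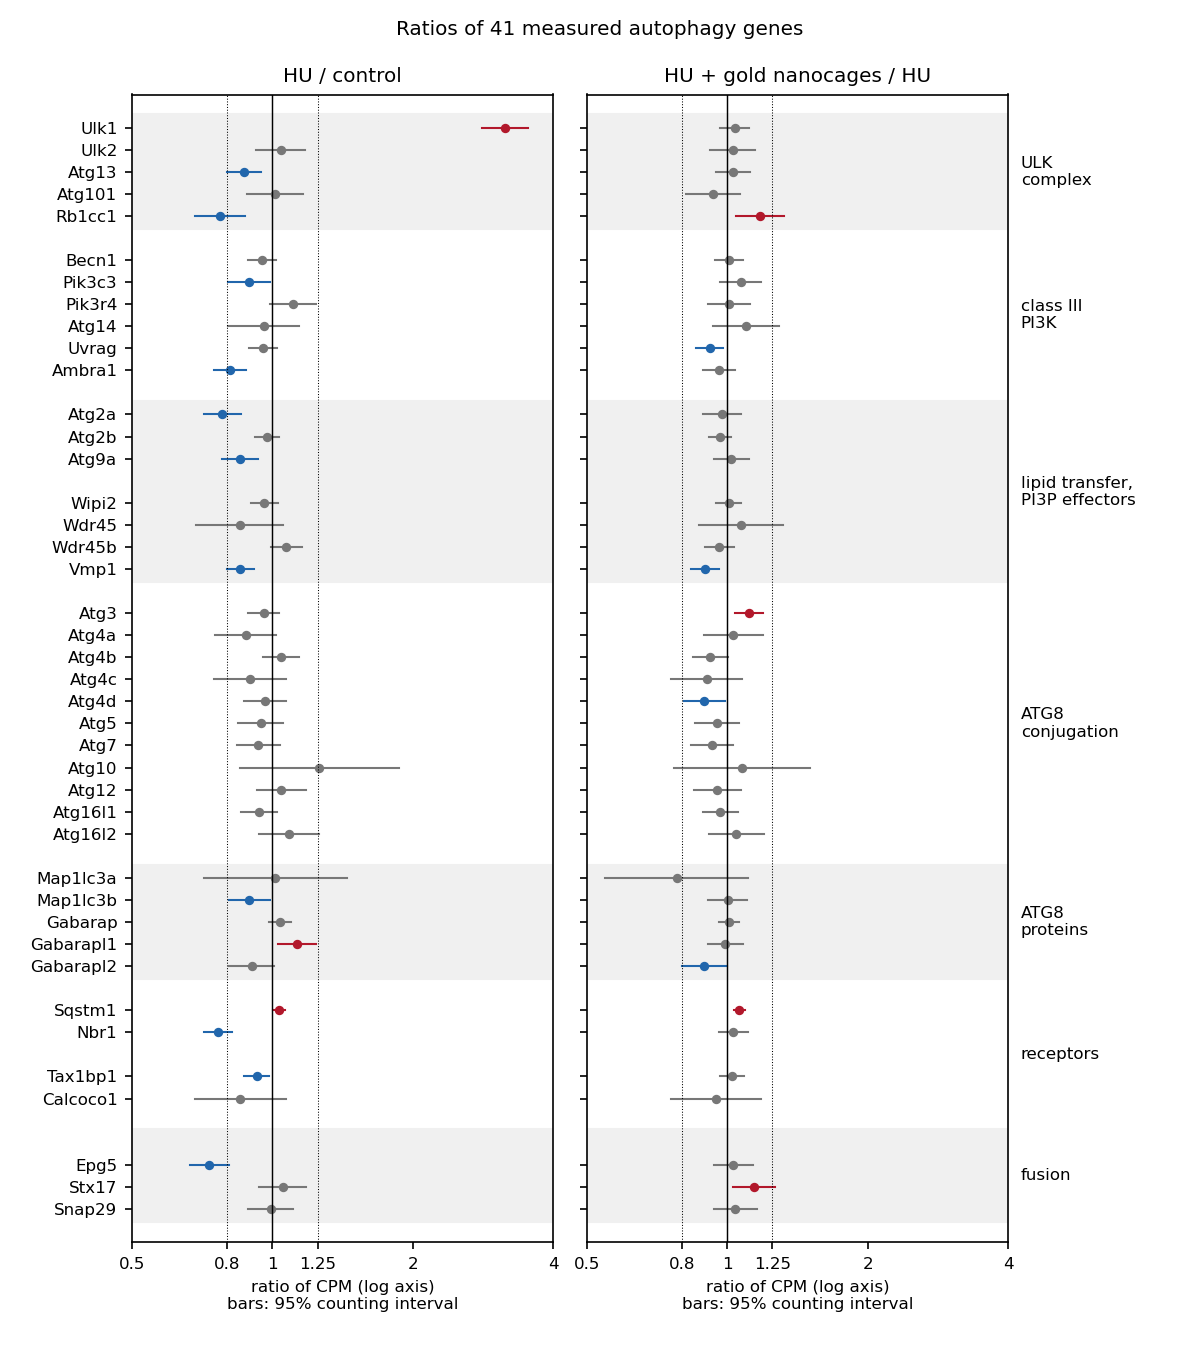
Ratio of CPM (x axis, log scale) for each of the 41 measured members, HU over control on the left and HU plus gold nanocages over HU on the right; points are ratios, bars 95% counting intervals, red above and blue below counting error, and dotted lines mark values 20% lower and 25% higher. Ulk1 at 3.15 stands alone on the left, and on the right all but Map1lc3a lie between the dotted lines.

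The ULK complex was where the members differed most from each other. Ulk1 encodes the kinase that starts autophagosome formation, and lies on chromosome 5 at 110784488 to 110810097 of mm10. Its reads numbered 378 in control, 1594 with HU and 1538 with HU plus gold nanocages, or 3.89, 12.25 and 12.71 FPKM. Both HU-treated libraries were high and close to each other, and control was low. The ratio was 3.15 in HU against control (2.82 to 3.54), 3.27 in HU plus gold nanocages against control (2.92 to 3.67) and 1.04 between the treated libraries (0.967 to 1.11). Among 10825 genes with a ratio of HU to control, 78 had a higher one.

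Ulk2, the related kinase gene, had 472, 658 and 629 reads, or 5.27, 5.49 and 5.64 FPKM in the same order. Its ratio of HU to control was 1.04 (0.924 to 1.18), within counting error. The order of the 2 kinase genes per length differed between libraries. Ulk1 was at 0.738 times Ulk2 in control (0.643 to 0.846), at 2.23 times with HU (2.04 to 2.45) and at 2.25 times with HU plus gold nanocages (2.05 to 2.48). With the length of the principal transcript in place of the deposited exonic size, the control value was 0.882 with an interval that includes 1 (0.769 to 1.01), and the HU value was 2.67.

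The windows of 250 bases upstream of the RefSeq start sites are shown for Ulk1, for Ulk2, and for Nbr1 and Atg2a, a pair of members that were lower in HU. They let the upstream sequence of the gene that differed most be read beside that of its flat relative and of genes that went the other way. Sequences are from RefSeq on GRCm38.p6, 5′ to 3′ on the gene's strand, and capitals mark the GC box GGGCGG on either strand. Nbr1 has 2 windows, of which the one farther upstream is printed.
Ulk1, chr5:110810082-110810331, strand minus: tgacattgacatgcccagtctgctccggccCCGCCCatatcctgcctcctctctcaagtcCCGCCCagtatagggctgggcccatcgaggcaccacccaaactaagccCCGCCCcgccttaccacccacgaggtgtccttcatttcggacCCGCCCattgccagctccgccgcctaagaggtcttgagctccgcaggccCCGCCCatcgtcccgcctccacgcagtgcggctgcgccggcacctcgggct
Ulk2, chr11:61855093-61855342, strand minus: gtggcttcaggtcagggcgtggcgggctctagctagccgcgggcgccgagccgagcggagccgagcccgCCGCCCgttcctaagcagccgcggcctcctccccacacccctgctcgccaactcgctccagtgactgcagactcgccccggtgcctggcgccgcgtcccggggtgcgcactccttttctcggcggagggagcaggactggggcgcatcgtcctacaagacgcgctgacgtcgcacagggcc
Nbr1, chr11:101551857-101552106, strand plus: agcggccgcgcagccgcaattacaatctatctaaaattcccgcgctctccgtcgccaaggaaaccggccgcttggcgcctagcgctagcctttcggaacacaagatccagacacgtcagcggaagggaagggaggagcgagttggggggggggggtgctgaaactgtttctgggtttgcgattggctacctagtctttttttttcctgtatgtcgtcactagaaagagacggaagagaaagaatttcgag
Atg2a, chr19:6241418-6241667, strand plus: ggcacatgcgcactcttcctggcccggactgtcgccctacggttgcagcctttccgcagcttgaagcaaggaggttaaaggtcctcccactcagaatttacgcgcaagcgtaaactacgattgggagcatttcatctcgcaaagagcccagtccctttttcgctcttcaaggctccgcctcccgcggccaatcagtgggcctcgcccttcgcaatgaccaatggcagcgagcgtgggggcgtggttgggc
The Ulk1 window holds 5 GC boxes, the Ulk2 window 1, and the Nbr1 and Atg2a windows none. At least 1 GC box is found in 32.7% of all 32851 windows of this length, and at least 5 in 1.93%. Among the 42 windows of members, 2 hold at least 5, so that Ulk1 shares this count with 1 other member window. Among the members, 36 have a window. Of the 42 member windows, 21 hold a GC box, or 50%, and these belong to 21 members. The windows hold 20, 31, 20 and 19 CpG in the order printed, beside a median of 6 over all windows and 15 over those of the members. The further motifs searched on both strands were the p53 half-site, the E-box CACGTG, the FOXO motif GTAAACA and the antioxidant response motif TGACNNNGC. None of these letters occurs in the windows shown, except 1 match of TGACNNNGC for Ulk2. The p53 half-site is in 7.13% of all windows and in that of Vmp1 among the members. The E-box is in 6.02% of all windows and in those of Atg3, Atg5 and Atg7. GTAAACA is in 3.17% of all windows and in none of the members', and TGACNNNGC is in 10.2% and in those of Atg13, Tax1bp1, Ulk2 and Vmp1. These are descriptions of sequence and not of binding.

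The other subunits of the ULK complex did not follow Ulk1. Rb1cc1 encodes FIP200, the scaffold of the complex. It had 517, 534 and 584 reads in the same order of libraries, or 2.35, 1.81 and 2.13 FPKM, so that HU was lowest and the third library lay between. Its ratio was 0.772 in HU against control (0.683 to 0.873) and 1.18 in HU plus gold nanocages against HU (1.04 to 1.33). This was the highest ratio of a measured member in the second contrast. Against control, the library with nanocages was within counting error (0.908, 0.805 to 1.02). An antisense gene shares 558 exon bases with Rb1cc1 and had 22 to 46 reads.

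Atg13, an adaptor subunit, had 15.56, 13.54 and 13.92 FPKM, with a ratio of HU to control of 0.870 (0.799 to 0.947). Atg101, which stabilises ATG13, was the highest of the complex by deposited length at 19.25, 19.5 and 18.18 FPKM, and was within counting error in each contrast. The summed level of the 5 genes was 46.3, 52.6 and 52.6 FPKM, and Ulk1 alone added more between control and HU than the sum did.

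Most class III PI3K genes were within counting error in HU. The 6 genes ran from 0.811 to 1.11 in HU against control, with 2 below counting error and none above, beside 20.2% and 18.7% of all measured genes. Becn1 encodes beclin 1, the subunit that BCL2 proteins bind. It had 1400, 1779 and 1667 reads, or 13.22, 12.55 and 12.66 FPKM, and was within counting error at 0.950 in HU (0.885 to 1.02) and at 1.01 with nanocages against HU (0.942 to 1.08). Pik3c3, the lipid kinase VPS34 itself, had 9.89, 8.82 and 9.43 FPKM and a ratio of HU to control of 0.892 (0.803 to 0.990).

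Ambra1 encodes a scaffold that links ULK1 and beclin 1 to ubiquitin ligases. It was at 13.14 FPKM in control, 10.65 with HU and 10.24 with nanocages added, with both treated libraries lower. The ratio was 0.811 in HU (0.749 to 0.877) and 0.779 with nanocages (0.719 to 0.845), each against control. Ambra1 and Atg13 both lie on chromosome 2, where Atg13 ends at 91710576 on the minus strand and Ambra1 starts at 91730134 on the plus strand. Genes between them were not looked for. Uvrag, a beclin 1 partner of later steps, was the highest of the group by deposited length at 28.23, 26.92 and 24.7 FPKM. It was below counting error with nanocages against HU, at 0.918 (0.857 to 0.982). By principal transcript length, Becn1 stood above Uvrag in every library.

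Of 7 measured genes of lipid transfer and PI3P reading, 3 were below counting error in HU and none above, beside 20.2% and 18.7% of all measured genes. Their median log2 ratio was -0.23, beside -0.0085 for all genes. Atg2a, a lipid transfer protein, had 911, 952 and 861 reads, or 7.9, 6.17 and 6.0 FPKM. Its ratio to control was 0.781 in HU (0.712 to 0.856) and 0.760 with nanocages (0.691 to 0.835). Its relative Atg2b, at 13.84, 13.47 and 13.02 FPKM, was within counting error in HU (0.974, 0.920 to 1.03). Per length Atg2b was 1.75 times Atg2a in control (1.62 to 1.90) and 2.18 times in HU (2.03 to 2.35).

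Vmp1, an endoplasmic reticulum scramblase needed for membrane supply, was lower in HU and lower again in the library with nanocages. It had 1596, 1822 and 1518 reads, or 27.57, 23.52 and 21.08 FPKM. The ratios were 0.853 in HU against control (0.797 to 0.913), 0.896 with nanocages against HU (0.837 to 0.960) and 0.765 with nanocages against control (0.712 to 0.821). It was the 1 member below counting error in all 3 contrasts, which are not independent. Atg9a, the lipid scramblase that travels in vesicles, was at 10.79, 9.19 and 9.38 FPKM (ratio of HU to control 0.852, 0.779 to 0.931).

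Among the PI3P readers, Wdr45b was at 16.67, 17.84 and 17.14 FPKM and its relative Wdr45 at 4.08, 3.47 and 3.71. The HU ratio of Wdr45 was 0.851 on 166 and 189 reads and was within counting error (0.687 to 1.05). Wipi2, which recruits ATG16L1, was at 10.4, 10.0 and 10.08 FPKM. Its deposited size is 10543 bases and its principal transcript 1959. With the principal transcript length it was at 55.9, 53.8 and 54.2 FPKM, the highest of this step in every library. Wipi1 rested on 11, 19 and 30 reads. Its ratio with nanocages against control was 2.19 (1.07 to 4.85), above counting error, but its level of 0.17 to 0.36 FPKM kept it out of the counts.

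The ATG8 conjugation genes were close to equal in control and HU. None of 11 was beyond counting error, beside 18.7% of all measured genes above and 20.2% below, and the ratios ran from 0.876 to 1.26. The end points were Atg4a, an ATG8 protease, at 8.3, 7.27 and 7.5 FPKM (0.876, 0.755 to 1.02) and Atg10, the E2-like enzyme for ATG12. Atg10 had 44, 74 and 74 reads, or 1.82, 2.29 and 2.47 FPKM, and its interval was wide (1.26, 0.854 to 1.87). At this depth a difference of 25% in Atg10 was not detectable.

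Atg3, the E2-like enzyme that attaches ATG8 to lipid, was the highest of the conjugation genes. It had 1186, 1521 and 1574 reads, or 25.08, 24.04 and 26.77 FPKM, and was above counting error with nanocages against HU at 1.11 (1.04 to 1.20). Against control that library was within counting error (1.07, 0.989 to 1.15). The protease gene Atg4d went the other way, at 17.54, 16.91 and 15.11 FPKM, with a ratio of 0.894 against HU (0.808 to 0.988). It shares 1405 exon bases with Kri1 on the other strand, which had 1821 to 2051 reads, and the strand setting of the counting is not given in the sources used here. With nanocages against control, 4 of the 11 were below counting error, namely Atg4c, Atg4d, Atg7 and Atg16l1, with ratios from 0.807 to 0.907, beside 20.1% of all measured genes.

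The ATG8 genes were dominated by the GABARAP branch in all 3 libraries. Gabarap had 2274, 3158 and 2965 reads, or 82.26, 85.38 and 86.24 FPKM, and made up 60.5%, 60.8% and 62.2% of the summed level of the 5 genes. It was within counting error in HU (1.04, 0.983 to 1.10). Map1lc3b, which encodes LC3B, the protein followed in most autophagy assays, had 716, 855 and 796 reads, or 6.35, 5.67 and 5.68 FPKM. Its ratio to control was 0.892 in HU (0.807 to 0.987), and with nanocages against HU it was 1.00 (0.908 to 1.10). Map1lc3a had 59, 80 and 58 reads, at 3.33, 3.38 and 2.63 FPKM.

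The place of Map1lc3b depended on which length was used. The deposited exonic size of Map1lc3b is 7517 bases and its principal transcript in GENCODE is 2532 bases long. Its share of the ATG8 level in control was 4.67% by the first and 10.2% by the second. The order Gabarap, Gabarapl1, Gabarapl2, Map1lc3b, Map1lc3a was the same by both lengths in each library. By CPM, which is not scaled to length, Map1lc3b took 16.4% of the reads of the 5 genes in control and stood above Gabarapl2 at 13.4%.

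Gabarapl1 and Gabarapl2 went apart, though in HU against control only Gabarapl1 was beyond counting error. Gabarapl1 was at 27.29, 30.82 and 30.51 FPKM, above counting error in HU against control (1.13, 1.03 to 1.24). Gabarapl2 was at 16.76, 15.12 and 13.5 FPKM, with the library given nanocages lowest (0.805 against control, 0.717 to 0.905). In HU against control Gabarapl2 was within counting error (0.902, 0.807 to 1.01). Its ratio with nanocages against HU was 0.893, with an interval from 0.799 to 0.998. Per length Gabarapl1 was 1.63 times Gabarapl2 in control (1.46 to 1.82), 2.04 times for HU (1.85 to 2.24) and 2.26 times with nanocages added (2.04 to 2.51). By principal transcript length these values were 1.14, 1.43 and 1.58.

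**Figure D3:**
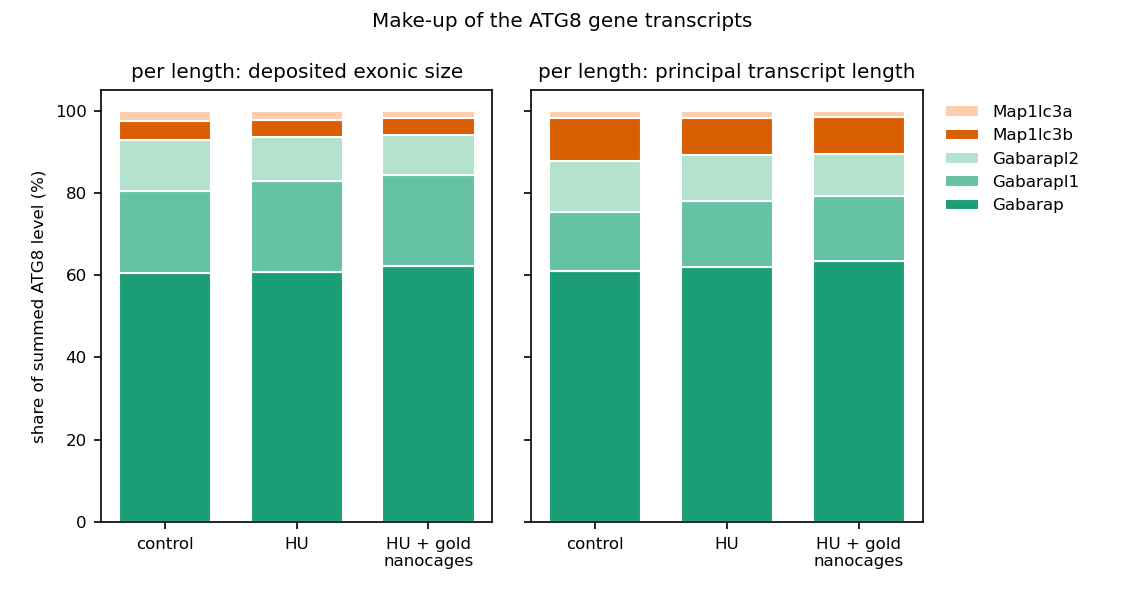
Share of each ATG8 gene in the summed per-length level of the 5 genes (y axis, percent) in each library, by deposited exonic size on the left and by principal transcript length on the right. Gabarap holds about the same part of every bar, 60.5% to 62.2% on the left, and Map1lc3b is wider on the right.

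The receptors split between a very abundant Sqstm1 and lower relatives. Sqstm1 encodes p62, which binds ubiquitin and ATG8 and is itself degraded by autophagy. It had 7538, 10444 and 10298 reads, or 149.84, 155.16 and 164.58 FPKM, highest in the library with nanocages. The ratios were 1.04 in HU against control (1.01 to 1.07), 1.06 with nanocages against HU (1.03 to 1.09) and 1.10 with nanocages against control (1.07 to 1.13). The intervals are narrow because of the depth, and differences of this size between single cultures have no replicate error to be set against.

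Nbr1, a receptor of related build, was lower in both treated libraries. It had 1589, 1627 and 1559 reads, or 15.43, 11.81 and 12.17 FPKM. Its ratio to control was 0.765 in HU (0.714 to 0.821) and 0.789 with nanocages (0.735 to 0.846). Per length Sqstm1 was 9.71 times Nbr1 in control (9.20 to 10.3), 13.1 times for HU (12.5 to 13.9) and 13.5 times with nanocages added (12.8 to 14.3). Tax1bp1, at 19.34, 17.89 and 18.3 FPKM, was below counting error in HU (0.925, 0.870 to 0.983). Calcoco1, at 2.59, 2.21 and 2.1 FPKM, was within counting error in HU (0.854, 0.684 to 1.07). Optn had 0, 2 and 4 reads. No reads in control allow up to 3, or 0.200 CPM, so no fold is given.

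Fusion genes were led by a lower Epg5. Epg5, a tether that gives the fusion step its specificity, had 864, 847 and 812 reads, or 5.96, 4.37 and 4.5 FPKM. Its ratio to control was 0.733 in HU (0.666 to 0.806), the lowest of the measured members, and 0.756 with nanocages (0.686 to 0.833). Stx17, the SNARE of the closed autophagosome, had 499, 702 and 745 reads, or 5.61, 5.9 and 6.73 FPKM. It was within counting error in HU (1.05, 0.936 to 1.18) and above it with nanocages, at 1.14 against HU (1.03 to 1.27) and 1.20 against control (1.07 to 1.35). Its partner Snap29 was at 10.56, 10.47 and 10.89 FPKM and within counting error throughout. Tecpr1 was at 1.03, 0.91 and 0.89 FPKM.

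The members that were lower in HU differ in exonic size, from Rb1cc1 at 14690 and Epg5 at 9672 bases to Pik3c3 at 4466, Atg13 at 4368 and Vmp1 at 3862. Across the 41 measured members, Spearman's rho between exonic size and the log2 ratio of HU to control was -0.27, and across 10825 genes it was -0.055. Over the members it was 0.18 with nanocages against HU and -0.090 with nanocages against control. Genes within a library share its RNA and its depth and are not independent, and the part of length in the lower values was not tested.

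The genes that govern and surround the core set were read from 8 lists of 96 genes in all, of which 88 were measured. In HU, 13 of the 88 were above and 24 below counting error, beside 18.7% and 20.2% of all measured genes, with a median log2 ratio of -0.03. With nanocages against HU, 5 were above and 12 below, beside 8.36% and 7.79% of genes, with a median of -0.0061. Beyond counting error and at least 25% higher in that contrast stood 1, Dapk1 (interval 1.06 to 1.47), beside 1.34% of genes. At least 20% lower stood 2, Lamtor4 at 0.770 (0.634 to 0.934) and Borcs5 at 0.747 (0.584 to 0.953), beside 0.96%. The genes at least 1.5-fold apart in HU were few and, save Mtmr14, higher. The genes at that distance in HU come from the lists of mTORC1 inhibitors, transcription factors, factors tied to p53 and class III PI3K partners.

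Of 11 inhibitors of mTORC1, the kinase complex that holds ULK1 inactive, 2 were above and 3 below counting error in HU, beside 18.7% and 20.2% of all measured genes. Ddit4, which acts through the TSC complex, had 7.8, 53.7 and 49.47 FPKM in the same order of libraries, high in both treated libraries. Its ratio with nanocages against HU was 0.921 (0.860 to 0.986). Sesn2, a leucine sensor, had 20.81, 82.73 and 83.92 FPKM, with a ratio between the treated libraries of 1.01 (0.977 to 1.05). Those below were Tsc1, Tsc2 and Sesn1, with ratios of HU to control of 0.892, 0.924 and 0.869. Sesn3 of the same list, Rragd of the mTORC1 list and Prkaa2 of the AMPK list had 0 reads in each library.

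Of 9 transcription factors that act on autophagy genes, 2 were above and 3 below counting error in HU, again beside 18.7% and 20.2% of all genes. Foxo3 had 8.69, 22.46 and 22.29 FPKM, again high in both treated libraries. The other above was Nfe2l2, with a ratio of HU to control of 1.16. Those below were Tfe3, Mitf and Foxo4, a relative of Foxo3, with ratios of 0.879, 0.805 and 0.747. Of 6 factors tied to p53, 4 were above and 1 below counting error, beside the same shares. Trp53inp1, whose protein binds ATG8, went from 35 reads to 2569 and 2443, and Aen, a nuclease gene listed under its older name Isg20l1, from 18.02 to 37.38 and 33.77 FPKM. The ratio of HU to control was 2.07 for Aen (1.96 to 2.20).

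Of 8 partners of the class III PI3K, 1 was above and 4 were below counting error in HU, beside 18.7% and 20.2% of all measured genes. Mtmr14, a phosphatase that removes phosphate from PI3P, had 840, 747 and 741 reads, or 19.5, 12.96 and 13.83 FPKM. Its ratio of HU to control was 0.665 (0.601 to 0.734), lower than that of any core member. Among 14 mTORC1 genes 2 were above and none below, among 9 AMPK genes 1 was above and 3 were below, and among 14 organelle receptors 3 were below and none above, beside the same shares. Of 17 tethers and SNAREs, 1 was above and 7 were below. None of these lists was tested against other genes.

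**Figure D4:**
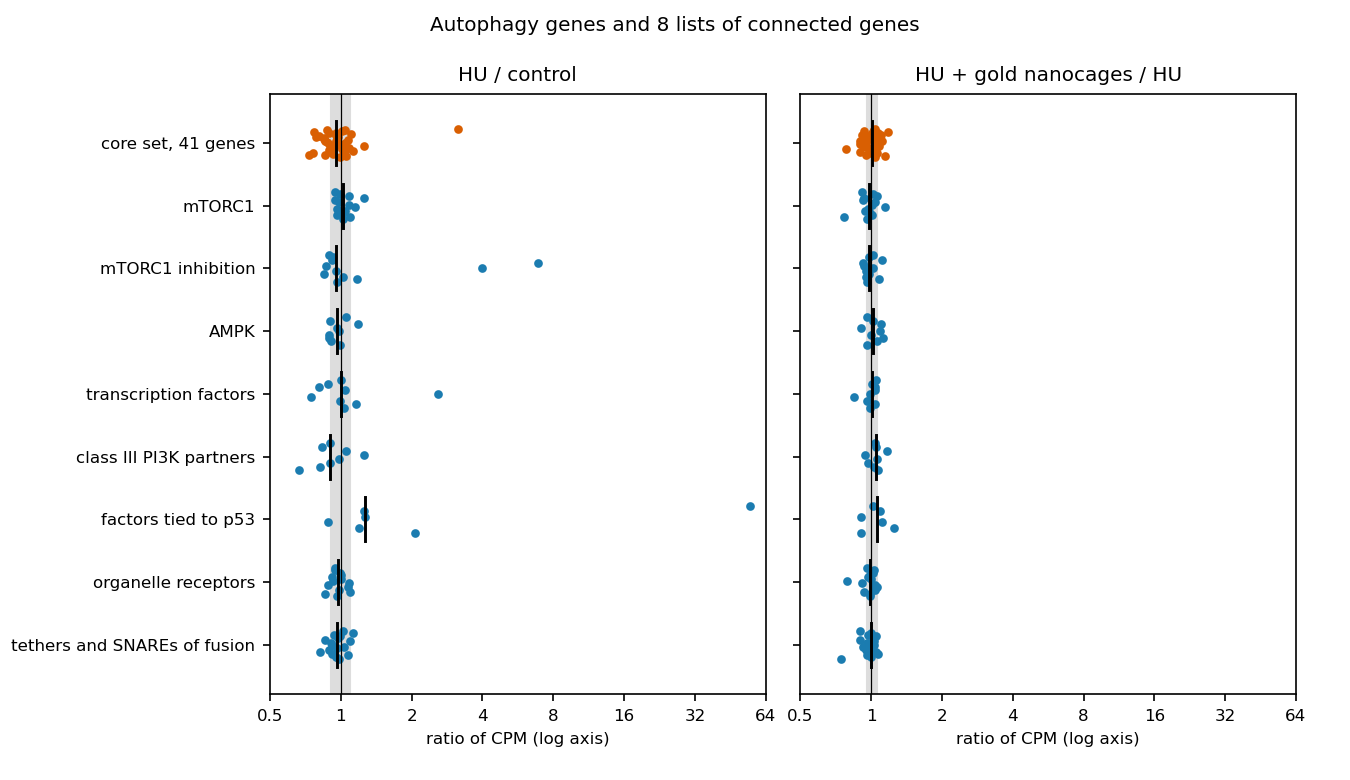
Ratio of CPM (x axis, log scale) of the 41 measured core genes and of the measured genes of 8 further lists, HU over control on the left and HU plus gold nanocages over HU on the right; each point is a gene, black bars are medians, and the grey band runs from the lower to the upper quartile of all measured genes. On the left a few single genes lie far to the right, with Trp53inp1 the farthest, while the medians stay near 1, apart from that of the factors tied to p53. On the right most genes stay close to 1. Beyond counting error, Dapk1 was at least 25% higher there, and Lamtor4 (0.770) and Borcs5 (0.747) at least 20% lower.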

How the data were processed

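The authors deposited 1 table with a whole-number read count per Ensembl gene and library, which is not normalized, and an FPKM column for each library. The deposited FPKM equals the count divided by exonic gene size and by the library's summed count, within a tolerance of 0.0051, for 100% of genes. A column of exonic gene sizes, per the file headers, gives lengths. The submitters' processing notes name mm10, HTSeq 0.6.1, HISAT2 2.0.1, DESeq, SAMtools 0.1.18, cutadapt and bcl2fastq 2.17.1.14. Which annotation release and which strand setting were used is not given in the sources used here. Whether reads of genes on opposite strands were kept apart is therefore not known. The deposited size equals the GENCODE M21 exon union for 29 of 44 members.

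Where a symbol has several rows, the row with most reads was taken (Atg2a has a further row without reads). Coordinates, biotypes and principal transcripts came from GENCODE M21. Of 96 further pathway genes, 88 matched by symbol, 7 by gene identifier and 1 by a synonym. Measured genes have a mean FPKM of at least 1. Intervals are Clopper-Pearson at 95% (scipy 1.17.1) and cover counting error only, since each group is 1 library. The reads carry no molecular identifiers, and the intervals treat every read as independent. They were checked on simulated reads drawn with counting error alone, which cannot show how they fare with variation between cultures. Promoter windows are RefSeq's. The 25 bases read after the start site were found on the gene's strand of a GENCODE transcript for 35 of 42 windows of members, and on the other strand for none. Members, lists and tests were chosen with earlier results of these data known. Members given in full were those at least 25% higher or 20% lower beyond counting error in any contrast, and Ulk1, Becn1, Map1lc3b and Sqstm1. For each step they also include the 2 measured members with the largest absolute log2 ratio of HU to control, in either direction. The member of each step with the highest mean FPKM was added. Others are named as ends of a range, relatives or exceptions, chosen after their values were seen. Alternatives used edgeR 4.0.16 and DESeq2 1.42.0 for library scaling only.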

Additional observations from a re-analysis of the deposited data

How the results depend on the processing

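No paired analysis was possible because each group is 1 library, and for the same reason no library could be left out. Scaling by TMM, by median-of-ratios size factors, by totals without mitochondrial and ribosomal RNA genes or by protein-coding totals moved every ratio by at most 0.0051 on the log2 scale. Over all settings the median log2 ratio of the members lay between -0.077 and -0.065 in HU against control, between -0.109 and -0.081 in HU plus gold nanocages against control, and between -0.0022 and 0.0136 in HU plus gold nanocages against HU, where its sign was not fixed. Ulk1 stayed between 3.15 and 3.16 in HU against control under the 4 scalings. On the log2(FPKM + 1) scale it was lower, at 2.71 in HU against control and 2.80 in HU plus gold nanocages against control. Each of these values lay below its main counting interval. With 99% intervals, 1 member was above counting error in HU against control, 1 below in HU plus gold nanocages against HU, and 9 below in HU plus gold nanocages against control. Members at least 20% lower in HU against control numbered 2 with a mean FPKM of at least 5 and 2 on the log2(FPKM + 1) scale. Without a filter, Wipi1 brought the members at least 25% higher in HU plus gold nanocages against control to 2. Without the 9 members that overlap a gene of at least 10 reads on the other strand, a setting chosen after seeing the data, 2 members were above counting error in HU plus gold nanocages against HU. Levels by principal transcript length were added after seeing the data as well.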
